A study of Mus musculus with 6 samples.

Results

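The genes described here encode the sulfotransferases (Sult), UDP-glucuronosyltransferases (Ugt) and glutathione S-transferases (Gst, with the membrane-bound Mgst) of mouse liver. Members were all genes with a probe set of their own, that is, a probe set paired with 1 gene, whose symbol starts with Sult, Ugt1, Ugt2, Ugt3, Gsta, Gstm, Gstp, Gstt, Gstk, Gsto, Gstz or Mgst, and the probe set of highest mean stood for a gene with several. This gave 44 of the 18820 genes with a probe set of their own: 15 Sult, 9 Ugt, 17 Gst and 3 Mgst genes. Livers of 3 CT and 3 LERKO mice were compared, all female, on the C57BL/6J background, each labelled as a biological replicate and measured on 1 Affymetrix Mouse Gene 1.1 ST array. CT mice were ERα fl/fl, with both alleles of the estrogen receptor ERα floxed, and LERKO mice were Alb-cre/ERα fl/fl. Floxed alleles were thus shared by both groups, and the Cre transgene came together with the loss of ERα. Albumin is made by hepatocytes. The study takes non-parenchymal liver cells, in which this promoter was reported inactive, as the likeliest origin of residual ERα in LERKO liver. These arrays do not measure ERα by cell type. The study does not state how old the array mice were.

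Phase II enzymes attach a charged group to drugs, steroids, bile acids, thyroid hormones and reactive electrophiles, which makes them soluble and ready for export into bile or blood. Sulfotransferases take sulphate from the donor PAPS, glucuronosyltransferases take glucuronic acid from UDP-glucuronic acid in the endoplasmic reticulum, and glutathione S-transferases join glutathione to electrophiles, mostly in the cytosol. In mouse liver several of these genes differ between the sexes, for example Sult3a1, which is higher in females, and the pi class Gst genes, which are higher in males, and both sex hormones and growth hormone are known to act on such genes.

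Values are signals of the robust multichip average (RMA) on the log2 scale, relative to no standard, so that they compare mice for 1 gene and not genes with each other. A probe set was tested when it reached a signal of 100 (6.64 on the log2 scale) in at least 1 array, which held for 10633 of 35556 probe sets. Esr1, the gene of ERα, was at 8.45, 8.78 and 8.29 in CT and at 6.75, 7.06 and 6.77 in LERKO mice. Its log2 fold change was −1.65 (standard error (SE) 0.15), and it did not pass over all probe sets (adjusted p = 0.149 from limma). With a signal of 100 required in all 6 arrays, Esr1 passed (adjusted p = 0.0409 from limma), as it did with an intensity trend (adjusted p = 0.0485). Hepatocyte markers lay between 16.14 and 16.25 in summed signal on all 6 arrays. Markers of other organs were high in a pair of arrays. In CT replicate 3 the summed signal of pancreas markers was 11.00 and that of skeletal muscle markers 10.20, beside 7.02 to 7.19 and 7.27 to 8.49 in the other mice. In LERKO replicate 2 that of adrenal cortex markers was 12.87, beside 7.57 to 7.82. Without both arrays, the differences of 17 of the 33 members tested below grew by over 1.5 times and 7 turned sign, and the values of the largest are given with each gene.

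No conjugation enzyme passed the test in LERKO liver, and the 3 largest differences toward higher levels, of Sult3a2, Sult3a1 and Sult2a8, rested on 1 CT mouse. Of the 44 members, 33 were tested and 11 stayed below a signal of 100 in every array. At an adjusted p under 0.05, limma called 0 of the 33 members and 0% of all probe sets. With a signal of 100 required in all 6 arrays it called 3 of 8849 probe sets, and with a trend 1, none of them a member. At an unadjusted p under 0.05 it gave 0 members higher and 0 lower in LERKO, beside 2.98% and 4% of all probe sets. The methods' t-test called 0 members after adjustment and had 1 higher and 1 lower at an unadjusted p under 0.05. The median log2 fold change of the members tested was −0.0046, with 16 higher and 17 lower in LERKO, beside a median of −0.01 over all probe sets tested. The groups did not overlap for 3 members. All LERKO mice lay above all CT mice for 1 of the 33 (5.91% of all probe sets) and below them for 2 (7.13% of all probe sets).

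These arrays bounded the differences of most members closely. The median SE was 0.12 and the median half-width of the 95% confidence interval 0.30 on the log2 scale. For 31 of 33 members the interval lay within a 2-fold change in either direction, and for 26 within 1.5-fold. The exceptions at 2-fold were Sult3a2 and Sult3a1. Replicates of the members lay farther apart than those of other probe sets, with a median SD within a group of 0.17 beside 0.12 over all probe sets tested. The median SD was 0.26 for the 2 Gstp genes and 0.24 for the 8 Sult genes, where the CT mice varied more than the LERKO mice for 7 of 8 genes, beside 60.6% of all probe sets. In bulk liver RNA, fewer cells of a type and less RNA per cell cannot be told apart.

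**Figure D1:**
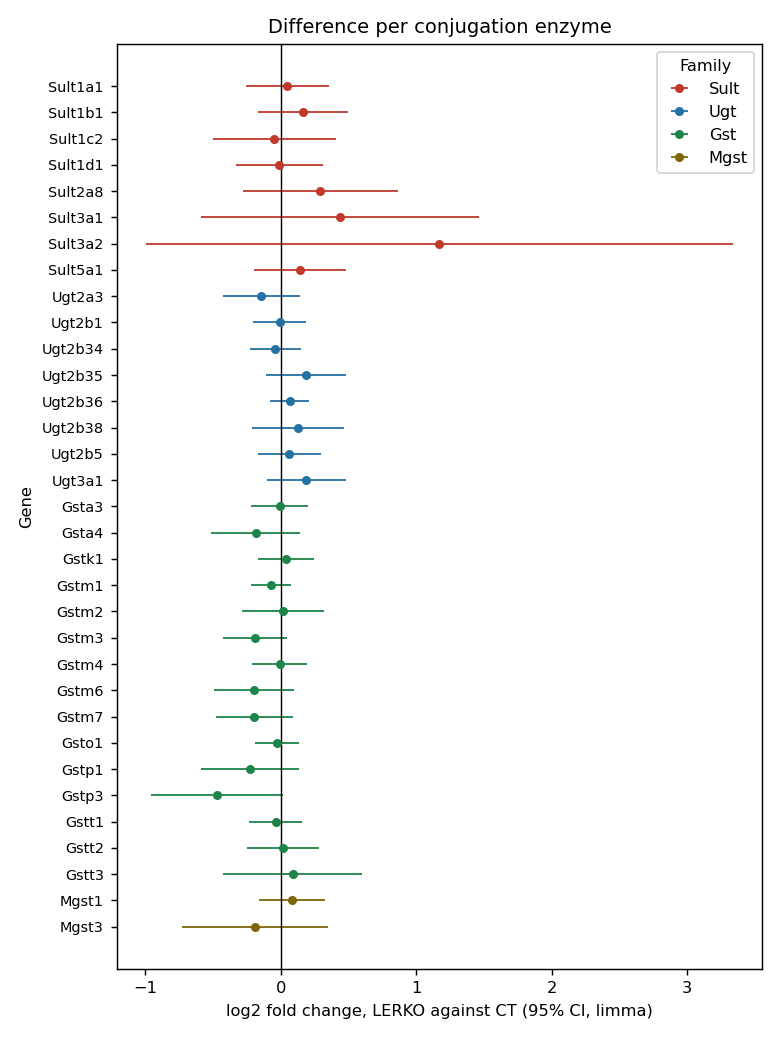
LERKO minus CT difference (log2) of the 33 conjugation enzymes tested (3 mice per group), with 95% confidence intervals from limma, coloured by family. Every interval includes 0, and those of Sult3a2 (−0.99 to 3.34) and Sult3a1 (−0.59 to 1.46) are the widest.

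Windows around annotated starts are shown for 4 members, Sult3a2 and Sult2a8, in which 1 CT mouse stood apart, and the neighbours Gstp1 and Gstp3, which had the lowest median difference of any class. Each runs from 250 bases before to 50 bases after a start in the RefSeq annotation of GRCm38.p6, 5′ to 3′ on the strand of the gene, with the AP-1 match of Gstp1, the only match in these 4 windows, in capitals. The start used for Sult3a2 lies 4589 bases inside the annotated gene.
Sult3a2, chr10:33782066-33782365, minus strand: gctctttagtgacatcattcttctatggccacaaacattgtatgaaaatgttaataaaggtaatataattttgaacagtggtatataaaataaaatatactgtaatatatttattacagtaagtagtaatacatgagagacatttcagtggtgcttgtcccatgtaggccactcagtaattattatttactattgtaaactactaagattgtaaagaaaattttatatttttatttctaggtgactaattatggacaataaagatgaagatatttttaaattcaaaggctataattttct
Sult2a8, chr7:14446538-14446837, minus strand: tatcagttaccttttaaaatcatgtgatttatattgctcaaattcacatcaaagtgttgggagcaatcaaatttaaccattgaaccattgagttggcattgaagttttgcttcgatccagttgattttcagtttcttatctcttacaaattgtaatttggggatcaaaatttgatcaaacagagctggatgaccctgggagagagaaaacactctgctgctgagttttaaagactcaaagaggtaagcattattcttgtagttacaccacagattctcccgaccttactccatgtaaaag
Gstp1, chr19:4037863-4038162, minus strand: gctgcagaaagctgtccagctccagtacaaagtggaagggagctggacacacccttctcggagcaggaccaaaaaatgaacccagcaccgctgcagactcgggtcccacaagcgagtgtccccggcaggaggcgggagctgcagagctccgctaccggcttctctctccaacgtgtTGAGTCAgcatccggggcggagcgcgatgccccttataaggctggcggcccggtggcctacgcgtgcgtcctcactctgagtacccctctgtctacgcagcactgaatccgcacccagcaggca
Gstp3, chr19:4059398-4059697, minus strand: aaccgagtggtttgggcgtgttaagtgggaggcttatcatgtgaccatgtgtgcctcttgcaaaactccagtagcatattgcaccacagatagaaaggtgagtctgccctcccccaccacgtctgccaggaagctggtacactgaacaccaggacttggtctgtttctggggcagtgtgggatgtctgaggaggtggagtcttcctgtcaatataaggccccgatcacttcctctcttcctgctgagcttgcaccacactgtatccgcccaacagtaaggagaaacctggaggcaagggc

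Windows of this kind were found for 41 of the 44 members, 52 in all, and were searched on both strands for 4 motifs. The estrogen response element GGTCANNNTGACC was in 0 of the 52 windows and in 0.07% of all 32851 windows of the annotation. At so low a share, 0 matches in 52 windows say nothing about the members. The AP-1 site TGANTCA, bound by Fos and Jun proteins, was in 10 windows (19.2%), beside 7.81% of all. They belonged to 10 members, among them Gstp1, Ugt2b35, Ugt2b37 and, in its other window, Sult2a8. The core of the antioxidant response element, TGACNNNGC, bound by Nrf2, was in 3 windows (5.77%), those of Gsta3, Gstm7 and Mgst1, beside 12.4% of all. The STAT site TTCNNNGAA, bound by mediators of growth hormone, was in 4 windows (7.69%), those of Gstm6, Mgst1, Mgst2 and Sult3a1, beside 8.3% of all. The start used for Sult3a1, like that for Sult3a2, lies well inside the annotated gene, and whether it is the main start in liver is not known. These matches are letters in a short window and not binding sites.

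Among the sulfotransferases, 6 of the 8 genes tested were higher and 2 lower in LERKO (median log2 fold change 0.15), and 1 CT mouse carried the largest of these differences. Sult3a2, a close relative and neighbour of Sult3a1 on chromosome 10, had signals of 6.44, 3.69 and 7.01 in CT and of 6.23, 6.49 and 7.95 in LERKO mice. CT replicate 2 lay 3.14 below the mean of the other 5 mice, whose own range was 1.72, and the groups overlapped. Only 2 arrays reached a signal of 100 for this gene, so its lowest value is a low signal and no fold is drawn from it. Its log2 fold change was 1.17 (SE 0.90, 95% confidence interval −0.99 to 3.34, adjusted p = 0.808 from limma) and fell to 0.16 without CT replicate 2. It was 1.82 without CT replicate 3 and 2.02 with CT replicate 3 and LERKO replicate 2 both left out. Sult3a1, a sulfotransferase of amines, was at 10.09, 8.63 and 10.35 in CT and at 10.14, 9.95 and 10.30 in LERKO mice. CT replicate 2 was again alone at the bottom, 2.89-fold below the mean of the others (mean of log2 values), and the other 5 mice spanned 0.40. The log2 fold change of 0.44 (SE 0.43, adjusted p = 0.829 from limma) turned to −0.09 without that mouse and was 0.86 without CT replicate 3 and LERKO replicate 2.

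Sult2a8, a sulfotransferase of bile acids, showed the same mouse apart from a tight group. Its signals were 10.20, 9.32 and 10.21 in CT and 10.16, 10.26 and 10.19 in LERKO mice. The other 5 mice lay within 0.10 of each other, and CT replicate 2 was 1.85-fold below their mean. The log2 fold change was 0.29 (SE 0.24, adjusted p = 0.812 from limma) with all mice and −0.0030 without CT replicate 2. Ugt2b35, a glucuronosyltransferase, was the fourth member with CT replicate 2 alone below all others, by 0.42, with signals of 8.86, 8.54 and 8.98 in CT and 8.94, 8.94 and 9.07 in LERKO mice. Its log2 fold change of 0.19 (SE 0.12, adjusted p = 0.782 from limma) was 0.06 without that mouse and 0.31 without CT replicate 3 and LERKO replicate 2.

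**Figure D2:**
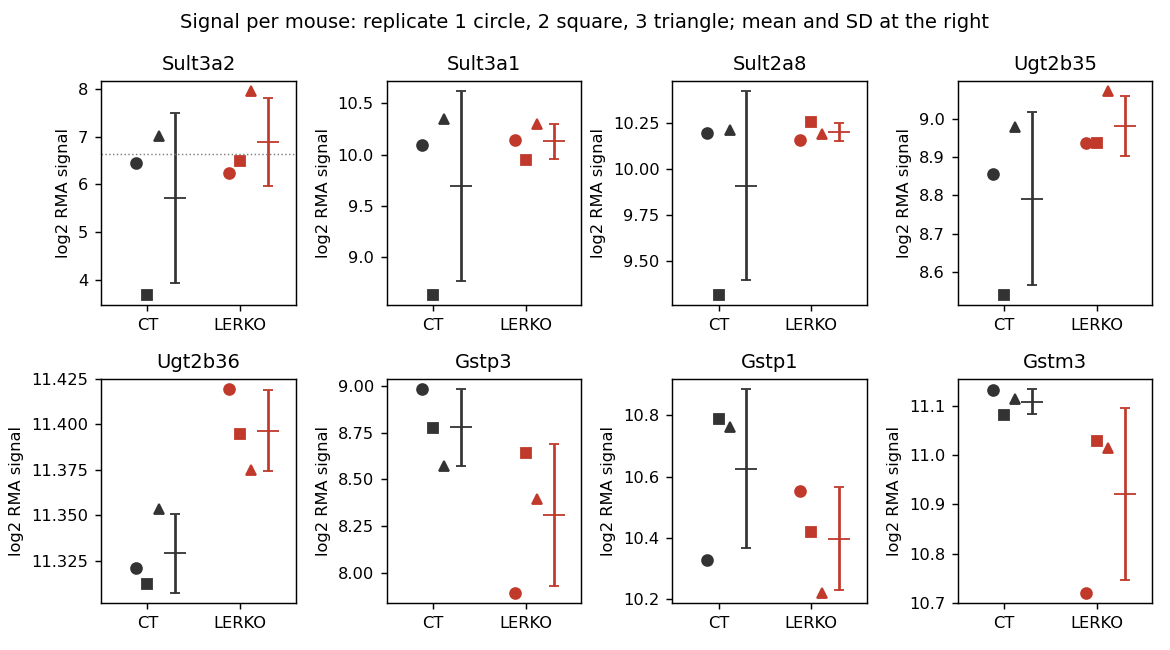
RMA signal (log2) of 8 members in each of the 3 CT and 3 LERKO mice, with the mean and SD at the right of each group and, for Sult3a2, the signal filter as a dotted line. CT replicate 2 (square) is alone at the bottom for Sult3a2 (3.69), Sult3a1 (8.63), Sult2a8 (9.32) and Ugt2b35 (8.54), while for Ugt2b36 and Gstm3 the groups do not overlap.

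A single array lay beyond the other 5 by more than their range for 8 of the 33 members (24.2%), close to the 21.2% of all probe sets. These 8 were unevenly spread over the mice. CT replicate 2 was alone below for 4 members and alone above for 0, while over all probe sets it was more often alone above (4.82%) than below (2.87%). Among the 305 probe sets with CT replicate 2 alone below, ranked by distance from the mean of the other arrays, Sult3a2 was at rank 1, Sult3a1 at rank 11, Sult2a8 at rank 39 and Ugt2b35 at rank 143. Genes near the top of that ranking, named after their values were seen, were Mup6 of the major urinary proteins (rank 3), the fatty acid elongase Elovl3 (rank 4), Fitm1 of lipid droplets (rank 9), the acute phase protein Orm3 (rank 10) and the circadian repressor Ciart (rank 13). The mean of the Kupffer cell markers in CT replicate 2 was −0.38 relative to the 6 mice, beside −0.10 to 0.23 in the others. Endothelial markers were at −0.07, beside −0.18 to 0.09, and stellate cell markers at −0.18, beside −0.19 to 0.30. Sox9, the only cholangiocyte marker tested, was at 0.62, beside −0.25 to 0.09. The female-biased liver genes outside these families were at −0.14, beside −0.26 to 0.57. The male-biased ones, Elovl3 among them, were at −0.41, beside −0.56 to 1.23. Their part in the low Sult signals was not tested.

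**Figure D3:**
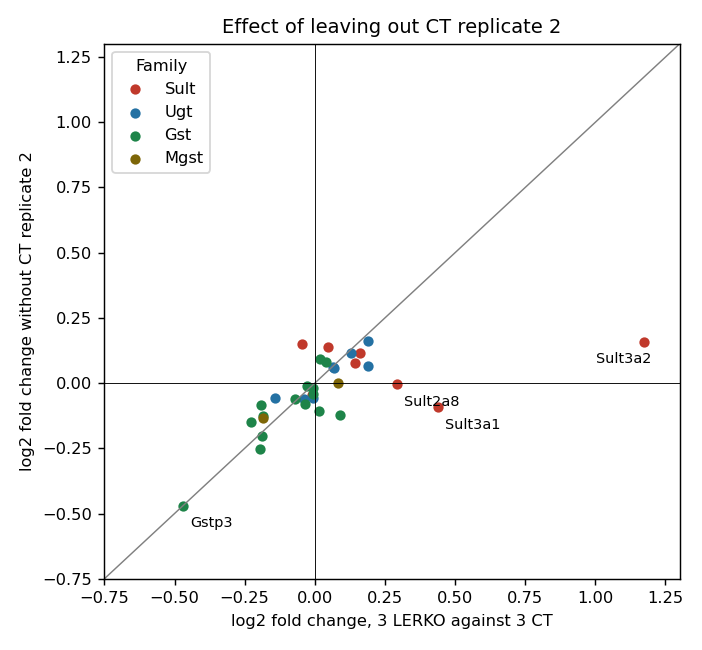
Log2 fold change of the 33 members without CT replicate 2 (vertical axis, 3 LERKO against 2 CT mice) against that with all 6 mice (horizontal axis), coloured by family, with the diagonal of equal values. Sult3a2, Sult3a1 and Sult2a8 lie far below the diagonal, at 0.16, −0.09 and −0.0030 without that mouse, and Gstp3 stays on it at −0.47.

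The other sulfotransferases differed little between the groups. Sult1b1, which sulphates thyroid hormones, was at 8.19, 7.85 and 7.78 in CT and at 7.95, 8.29 and 8.07 in LERKO mice, so that the groups overlapped (log2 fold change 0.16, SE 0.14). Sult1a1, the main phenol sulfotransferase, had 10.19, 10.30 and 9.86 in CT and 10.09, 10.28 and 10.12 in LERKO mice, with CT replicate 3, the array with pancreas and muscle genes, alone at the bottom by 0.34. Its log2 fold change was 0.05 and turned to −0.08 without that array. Sult1d1, a sulfotransferase of catecholamines, and Sult1c2 had log2 fold changes of −0.0091 and −0.04, and Sult5a1, which reached a signal of 100 in 3 arrays, had 0.14. Sult1e1, the estrogen sulfotransferase, stayed below the filter on every array, at 4.80, 3.18 and 3.18 in CT and at 3.73, 3.29 and 3.76 in LERKO mice, and was not tested. The other Sult genes below the filter were Sult1c1, Sult2a6, Sult2b1, Sult4a1, Sult6b1 and Sult6b2, with signals from 2.30 to 3.37.

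Averaged over the 8 Sult genes tested, the level in CT replicate 2 was −0.56 relative to the mean of the 6 mice. It was 0.10 and 0.05 in the other CT mice and −0.02, 0.16 and 0.27 in the LERKO mice. The low mean of CT replicate 2 rested on Sult3a2, with its low signal, Sult3a1 and Sult2a8, and did not hold across the family. That mouse was lowest for 4 of the 8 genes and highest for 2, Sult1a1 (10.30) and Sult1c2 (7.60). In the family mean, the remaining CT and LERKO mice overlapped. For the Ugt genes the same mean lay between −0.07 and 0.08 in all mice, with LERKO replicate 1 at the top. For the 15 Gst genes it was 0.13, 0.03 and −0.02 in CT and −0.14, 0.02 and −0.03 in LERKO mice, again with overlap.

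**Figure D4:**
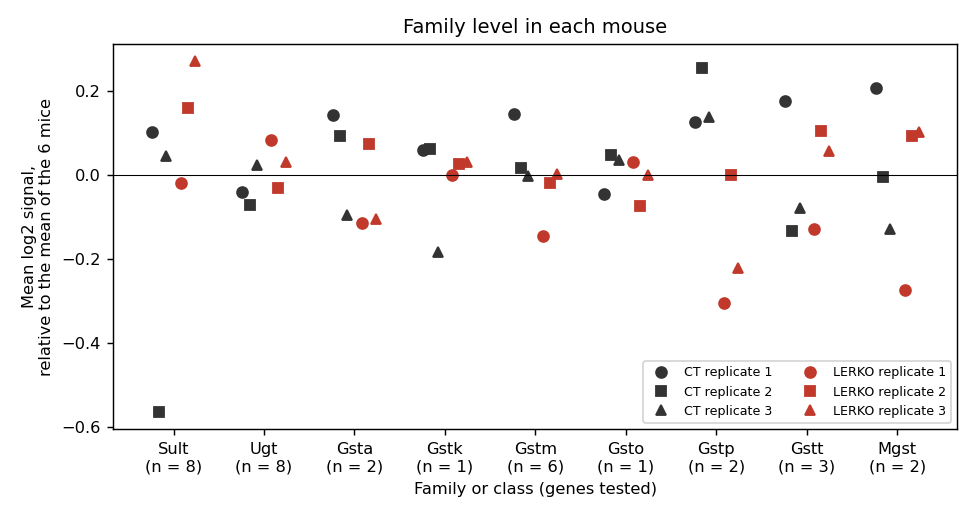
Mean log2 signal of the genes tested in each family or Gst class, relative to the mean of the 6 mice, 1 point per mouse. For Sult, CT replicate 2 lies at −0.56, owing to Sult3a2, Sult3a1 and Sult2a8, and the others between −0.02 and 0.27. For Gstp all LERKO mice (−0.31 to 0.0017) lie below all CT mice (0.13 to 0.26). The Gstp value is a mean of 2 genes, and for each of them alone the groups overlap.

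Glucuronosyltransferases lay on both sides of 0. Of the 8 tested, 5 were higher and 3 lower in LERKO, and their log2 fold changes ranged from −0.14 to 0.19 around a median of 0.07. Ugt2b36 was the only member with all LERKO mice above all CT mice. It had signals of 11.32, 11.31 and 11.35 in CT and of 11.42, 11.39 and 11.38 in LERKO mice, and a log2 fold change of 0.07 (SE 0.06, 95% confidence interval −0.08 to 0.21, adjusted p = 0.823 from limma). The separation rested on a spread of about 0.02 (SD, n = 3) within each group. Ugt3a1, whose human counterpart transfers N-acetylglucosamine, was at 10.86, 10.64 and 10.60 in CT and at 10.95, 10.67 and 11.05 in LERKO mice (log2 fold change 0.19, SE 0.12, adjusted p = 0.779 from limma), with overlap. Ugt2a3, an enzyme of the glucuronidation of bile acids, had a log2 fold change of −0.14 (SE 0.12), which was −0.06 without CT replicate 2, −0.23 without CT replicate 3 and −0.29 with CT replicate 3 and LERKO replicate 2 both left out. Ugt2b34, Ugt2b1, Ugt2b5 and Ugt2b38, neighbours of Ugt2b36 in a cluster on chromosome 5, had log2 fold changes from −0.04 to 0.13.

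Ugt2b37 was the member nearest to the signal filter from below. Its signals were 5.73, 5.16 and 6.57 in CT and 6.34, 6.41 and 6.63 in LERKO mice, beside the filter at 6.64, and CT replicate 2 was again the lowest. Just inside the filter were Sult5a1, at most 6.95, Mgst3, at most 7.38, and Sult1c2, at most 7.60. Farther outside were Sult1e1, at most 4.80, and Gstt4, at most 4.20. No Ugt1 gene had a probe set of its own, as the Ugt1a probe set was paired with 8 genes.

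Most glutathione S-transferases were slightly lower in LERKO liver, without a call. Of the 15 tested, 4 were higher and 11 lower (median log2 fold change −0.04). For all 15 the highest of the 6 mice was CT replicate 1 (8 genes) or CT replicate 2 (7 genes). Over all probe sets these mice were highest for 18.2% and 28.3%. LERKO replicate 1 was lowest for 5 of the 15 (33.3%), beside 20.8% of all probe sets.

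The pi class gave the smallest p of all members. Gstp3 had signals of 8.98, 8.78 and 8.57 in CT and of 7.89, 8.64 and 8.39 in LERKO mice. LERKO replicate 1 was the lowest, and LERKO replicate 2 lay above CT replicate 3, so that the groups overlapped. The level was 1.38-fold lower in LERKO (log2 fold change −0.47, SE 0.20, 95% confidence interval −0.96 to 0.02, unadjusted p = 0.0568, adjusted p = 0.703 from limma). The difference was −0.26 without LERKO replicate 1 and −0.64 without LERKO replicate 2, and −0.74 with CT replicate 3 and LERKO replicate 2 both left out. Gstp1, its neighbour on chromosome 19, was at 10.33, 10.79 and 10.76 in CT and at 10.55, 10.42 and 10.22 in LERKO mice. CT replicate 1 was highest for Gstp3 and lowest among CT for Gstp1, so the order of the mice was not the same for the pair. The log2 fold change of Gstp1 was −0.23 (SE 0.15, adjusted p = 0.783 from limma), and −0.38 without CT replicate 1. Genes of one class share much of their sequence, and how far their probes take up each other's transcripts was not tested. The male-biased liver genes outside these families had their highest mean in CT replicate 3 (1.23 relative to the 6 mice, beside −0.56 to 0.07). That mouse had the lowest Gstp3 among CT, while its Gstp1 (10.76) was below only that of CT replicate 2 (10.79). Both Gstp probe sets paired with 2 genes were highest in CT replicate 3 (9.63 and 9.66). The part of the male-biased genes in the Gstp values was not tested.

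In the mu class 5 of 6 genes were lower in LERKO (median log2 fold change −0.13). Gstm3 was one of 2 members with all LERKO mice below all CT mice. It had signals of 11.13, 11.08 and 11.11 in CT and of 10.72, 11.03 and 11.02 in LERKO mice, with LERKO replicate 1 alone at the bottom by 0.35. The log2 fold change was −0.19 (SE 0.10, adjusted p = 0.743 from limma) and −0.09 without that mouse. Gstm3 was also the only member with another probe set of its own, which gave −0.26 and likewise had its lowest value, 9.86, in LERKO replicate 1. The other member without overlap was Gstm1, an abundant mu class enzyme of liver, at 12.70, 12.73 and 12.70 in CT and at 12.65, 12.67 and 12.60 in LERKO mice, a difference of −0.07 (SE 0.06, adjusted p = 0.820 from limma).

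Gstm6 and Gstm7 each had a log2 fold change of −0.19 with overlapping groups. For Gstm6, CT replicate 1 was alone at the top at 10.92, beside 10.34 to 10.57, and the difference was −0.08 without it and −0.30 without CT replicate 3 and LERKO replicate 2. For Gstm7, which had 10.15, 10.36 and 9.92 in CT and 9.90, 9.99 and 9.96 in LERKO mice, the difference was −0.08 without CT replicate 2, −0.31 without CT replicate 3 and −0.32 with LERKO replicate 2 left out too. Gstm2 and Gstm4 had log2 fold changes of 0.01 and −0.0046.

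**Figure D5:**
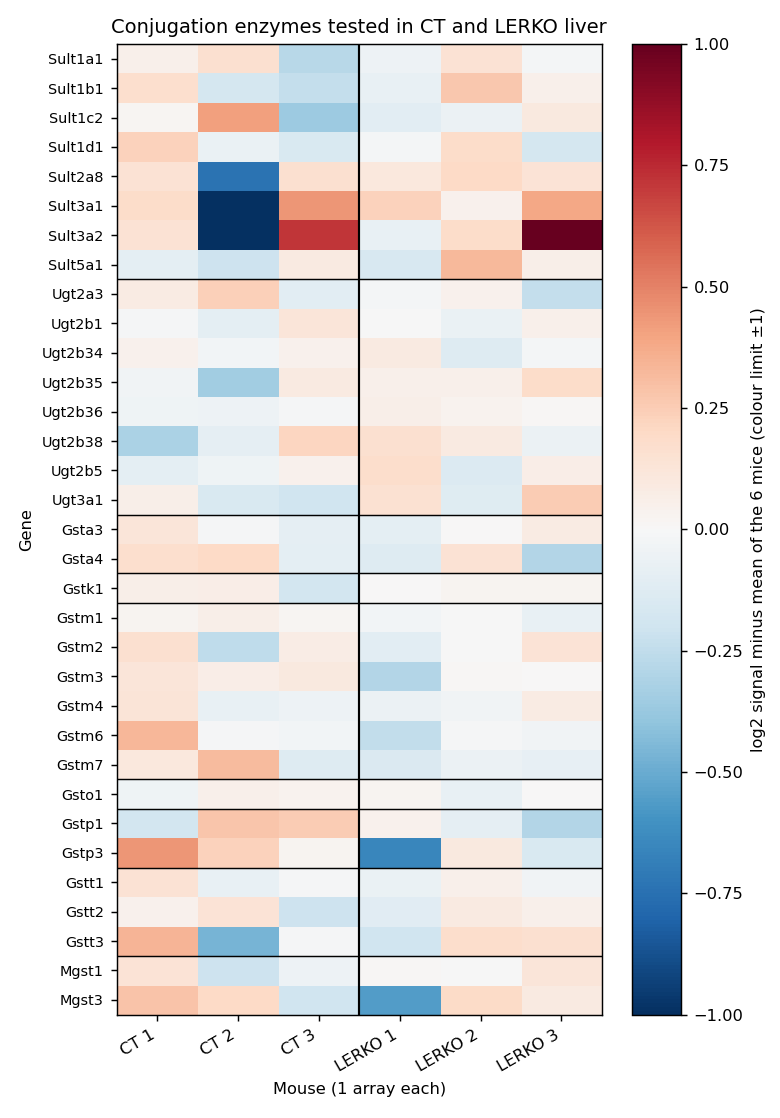
Log2 signal of each member tested (rows, ordered by family or class) in each mouse (columns), relative to the mean of the 6 mice, with the colour scale limited to 1 in either direction. The strongest blue is CT replicate 2 for Sult3a1 and Sult3a2, and all 15 Gst rows from Gsta3 to Gstt3 have their highest value in CT replicate 1 or 2.

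In the remaining Gst classes and the membrane-bound enzymes, Gsta4 and Mgst3 had differences of about the size of those in the mu class. Gsta4, which detoxifies products of lipid peroxidation such as hydroxynonenal, was at 9.40, 9.44 and 9.14 in CT and at 9.11, 9.38 and 8.94 in LERKO mice. Its log2 fold change was −0.18 (SE 0.14, adjusted p = 0.802 from limma), and −0.39 with CT replicate 3 and LERKO replicate 2 both left out. Gsta3, which conjugates the epoxide of aflatoxin in mouse liver, had −0.0072, and Gsto1, of the omega class, had −0.03. Gstt1, Gstt2 and Gstt3 of the theta class had −0.04, 0.02 and 0.09, of which Gstt3 turned to −0.12 without CT replicate 2. Gstk1, the mitochondrial and peroxisomal form, had 0.04, with CT replicate 3 alone at the bottom at 11.52 beside 11.70 to 11.77. Mgst1, of the endoplasmic reticulum and outer mitochondrial membrane, had 0.08 (SE 0.10), and Mgst3, related to leukotriene C synthase, had −0.19 (SE 0.23) with 5 arrays at the filter. The value of Mgst3 was −0.48 with CT replicate 3 and LERKO replicate 2 both left out and turned to 0.05 without LERKO replicate 1. Mgst2, Gsto2 and Gstt4 stayed below the filter.

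Genes around the conjugation enzymes were counted in the same way. Of 16 tested genes that supply PAPS, UDP-glucuronic acid and glutathione, 7 were higher and 9 lower in LERKO, with 0 called after adjustment. At an unadjusted p under 0.05 from limma, 1 was higher and 0 lower, beside 2.98% and 4% of all probe sets. The higher gene was Oplah, an enzyme that recycles oxoproline for glutathione synthesis, with a log2 fold change of 0.28 (SE 0.11), and 0.17 without LERKO replicate 1. Of 23 other conjugating or hydrolysing enzymes, 11 were higher and 12 lower, with 0 called after adjustment. Past an unadjusted p of 0.05 from limma, 1 was higher and 0 lower, beside the same shares of all probe sets. The higher gene was Ephx2, the soluble epoxide hydrolase, at 0.20 (SE 0.08).

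Transporters that carry conjugates were higher in LERKO for 12 of 15 genes, with a median of 0.06 and 0 called after adjustment. At an unadjusted p under 0.05 from limma, 2 were higher and 0 lower, beside 2.98% and 4% of all probe sets. Slc22a7, an organic anion transporter of the sinusoidal membrane, was at 6.37, 5.49 and 6.38 in CT and at 6.70, 6.75 and 6.99 in LERKO mice, with CT replicate 2 alone at the bottom as for the Sult3 genes. Its log2 fold change was 0.73 (SE 0.25, adjusted p = 0.703 from limma) and 0.44 without CT replicate 2. All LERKO mice lay above all CT mice. The CT signals were all below the signal filter and the LERKO signals all above it, so only the LERKO mice brought Slc22a7 into the test. The separation and the unadjusted p of Slc22a7 are therefore not independent of the filter, and its low signals limit what the difference means. Abcb4, the phospholipid flippase of bile, was the other past an unadjusted p of 0.05, at 0.31 (SE 0.12), and 0.49 without CT replicate 3 and LERKO replicate 2.

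Of 24 tested genes of a list of regulators, 11 were higher and 13 lower in LERKO, with 0 called after adjustment. The list holds 17 transcription factors, of which 7 were higher and 10 lower, and 7 other proteins (Keap1, the inhibitor of Nrf2, and enzymes such as Cyp2b10 and Txnrd1 that respond to these factors). At an unadjusted p under 0.05 from limma, 2 of the factors were higher and 1 lower, beside 2.98% and 4% of all probe sets. Ahr, the aryl hydrocarbon receptor, was at 9.05, 8.77 and 9.31 in CT and at 9.67, 9.31 and 9.68 in LERKO mice, just without overlap (log2 fold change 0.51, SE 0.16, adjusted p = 0.703 from limma). Nr1h4, the bile acid receptor FXR, was higher by 0.19 (SE 0.08), and Nr3c1, the glucocorticoid receptor, had −0.20 (SE 0.06). Of 9 tested female-biased liver genes outside these families, 3 were past an unadjusted p of 0.05, all higher in LERKO, namely Cyp3a16, Cyp17a1 and Acot3 with log2 fold changes of 1.73, 0.24 and 0.55, beside 2.98% of all probe sets, and 0 were called after adjustment. For Acot3, CT replicate 2 was alone at the bottom, and the difference was 0.35 without it. Cyp3a16 was near the filter in CT mice (6.03, 6.09 and 6.74), and its difference was 1.19 without LERKO replicate 3 and 2.13 without LERKO replicate 2. Of 10 tested male-biased genes outside these families, 1 was higher and 9 lower, with 0 past an unadjusted p of 0.05 from limma. For comparison, 5689 of the 10633 probe sets had a lower mean in LERKO. The mean of these male-biased genes was 1.23 in CT replicate 3, but −0.33 and −0.41 in the other CT mice. In the LERKO mice it was 0.07, 0.0085 and −0.56. CT replicate 3 was alone above for Slco1a1, Cyp4a12a, Cyp4a12b, C6 and Cyp7b1. The count of 9 thus leans on that array and gives no direction for the list.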

How the data were processed

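Each of 3 CT and 3 LERKO livers was hybridised to its own array. The authors deposited log2 signals, made with RMA of the oligo package (version not stated), that is, background correction, quantile normalization over arrays and probe summary. Low signals had not been removed from the table. Array data carry no read depth, and the number of arrays limits the precision.

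Probe sets were named from the platform annotation, with symbols updated through gene identifiers, and only those paired with 1 gene were named. The study's signal filter was read as keeping probe sets at 100 or more in at least 1 array. The study itself lists 3 regulated genes, Esr1 among them. This reading gave 0 probe sets, and 100 in all 6 arrays gave 3 with Esr1 among them, so the count depends on the reading. Genotypes were compared by limma 3.58.1 (R 4.3.3; lmFit, then eBayes) over the 10633 probe sets kept, two-sided, with no other term, and p-values were adjusted by Benjamini-Hochberg to a false discovery rate of 5%. The model was run on simulated data of independent normal values. These held no array with genes of other organs and no mouse set apart, so they do not test such features. A mouse was called alone where it lay beyond the other 5 by more than their range.

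The members and lists were chosen with earlier results of these data known. Named members are the 12 of smallest p, the 2 of highest mean signal per family or class, the 5 of largest difference, those with 1 mouse alone and the 3 nearest the filter on each side. Named list genes are up to 3 of smallest p. Others, such as the remaining members, complete their family. Summed signals add linear signals of a list's genes, on the log2 scale. Alternatives were the signal filter, normalization, variance model, the methods' t-test, a replicate block, probe set averaging, and leaving out each array or both arrays with genes of other organs. Sequences are from RefSeq (GRCm38.p6). Figures were drawn with matplotlib.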

Additional observations from a re-analysis of the deposited data

How the results depend on the processing

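For the 28 named members that were tested, 500 values were recomputed under alternatives and 0 were called. The direction was kept in 470, and the smallest adjusted p from limma was 0.373. The sign turned in 30 values of 14 members. Centring on array medians and repeated quantile normalization turned Gsta3 (0.0039 and 0.016), Gstm4 (0.0065 and 0.020) and Sult1d1 (0.0021 and 0.018), and array weights turned Gstt3 (−0.050). Without CT replicate 3 and LERKO replicate 2 together, Gstk1 was −0.046, Gsto1 0.013, Sult1a1 −0.14, Sult1b1 −0.010 and Ugt2b34 0.030. With 1 array left out, the sign of these turned within their ranges: Gsta3 −0.056 to 0.051, Gstm4 −0.046 to 0.060, Gstt1 −0.081 to 0.025, Gstt3 −0.12 to 0.28, Gstk1 −0.042 to 0.081, Gsto1 −0.057 to 0.0017, Mgst3 −0.33 to 0.047, Ugt2b34 −0.091 to 0.016, Sult1a1 −0.080 to 0.14, Sult1c2 −0.24 to 0.15, Sult1d1 −0.10 to 0.10, Sult2a8 −0.0030 to 0.44 and Sult3a1 −0.092 to 0.77. Members lower at an unadjusted p under 0.05 numbered 1 with a filter of 100 in at least 3 or in all 6 arrays, with a trend and with array weights (Gstp3 each time), 1 by the methods' t-test (Gstm1) and 0 to 2 with 1 array left out. The count of 2 was without CT replicate 3 (Gstm7 and Gstp3), where 7.36% of all probe sets were lower. That of 1 was without CT replicate 1 (Gstp1) or without LERKO replicate 2 (Gstp3), beside 3.25% and 4.12% of all probe sets. Members higher numbered 1 with no filter (Mgst2, at most 3.43 and so below the filter on all 6 arrays) and by the methods' t-test (Ugt2b36). For the other filters, the trend, the array weights and the t-test, shares over all probe sets were not counted. The counts at those settings are therefore no result about the members. With 1 array left out they numbered 0 to 1 (Ugt3a1 without LERKO replicate 2, where 3.41% of all probe sets were higher). Without CT replicate 3 and LERKO replicate 2 together, 3 were lower (Gstp3, Gsta4 and Gstm7), beside 6.81% of all probe sets. The count without overlap between groups, 3 with all mice, was 3 to 12 with 1 array left out, 12 (36.4%) without CT replicate 3, and 17 (51.5%) with both left out. Over all probe sets it was 19.7% to 25.9% with another array left out and 29.1% and 44% in the latter cases, as fewer mice separate more easily. The medians of Ugt and Gsta were then 0.14 and −0.23. The labels do not say whether mice with the same replicate number were paired. Deviations of same-numbered mice correlated at −0.16, −0.07 and −0.14, beside 0.0051 to 0.16 for other pairs. With 3 mice per group such correlations cannot decide this. With the number as a replicate block, 0 members were called, 0 had an unadjusted p under 0.05, and the median stayed −0.0046. Without a signal filter the 11 low members entered too. The other medians moved by less than 1 SD and the other counts by at most 1.5 times. Near the filter, a low signal limits what a difference means.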

Other observations

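Probe sets paired with several genes, at least 1 of them of these families, were left out of the comparison and are given here as values of probe sets. There were 15, of which 14 were tested, and 0 had an unadjusted p under 0.05 from limma. The Ugt1a probe set lay between 10.98 and 11.09 in all 6 mice and differed by 0.04 (SE 0.06), and the Gstz probe set, between 11.41 and 11.62, differed by −0.00016. A Sult2 probe set paired with 2 genes had the smallest p, with 9.62, 9.39 and 9.11 in CT and 9.59, 9.68 and 9.82 in LERKO mice, a log2 fold change of 0.33 (SE 0.14, unadjusted p = 0.0519 from limma), and CT replicate 2 was not its lowest mouse. Both Gstp probe sets paired with 2 genes had CT replicate 1 as the lowest CT mouse and LERKO replicate 3 as the lowest of all, as Gstp1 did, with log2 fold changes of −0.26 and −0.24 (SE 0.13 each). A Gstm probe set near the filter had −0.29 (SE 0.13). The 4 Gsta probe sets, paired with 3 or 4 genes, had −0.13 to −0.10 (SE 0.27 to 0.28). Each had its highest value in CT replicate 2 and its lowest in CT replicate 3.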
